A study of Homo sapiens with 2 samples.

Results

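LINC RNAs are long intergenic non-coding RNAs that carry a provisional symbol, LINC and a number, because no function or neighbour has given them another name. The deposited table of K562 RNA holds 2286 genes with such a symbol among its 62702 rows. Of these, 1718 had 0 counts in both libraries and 568 had at least 1 count. The 181 genes described here are those with at least 20 counts summed over the library with a guide against SMC1A and the library with a control guide. They were chosen by the summed counts of both libraries, so a gene could enter through the library in which it was high, and the counts below describe the genes that entered, not all LINC genes.

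A long intergenic non-coding RNA is transcribed by RNA polymerase II, is usually capped, spliced and polyadenylated like a messenger RNA, and has no long open reading frame. Most are less abundant and more restricted to single cell types than messenger RNAs, and many lie near enhancers or start close to the promoter of a coding gene. A few act in trans or on nearby genes, but for most of those named here no function is established. Cohesin, of which SMC1A is a core subunit, is a ring that encloses DNA and extrudes the loops that bring enhancers and promoters into contact.

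Both libraries came from K562, a human chronic myeloid leukaemia line with erythroid features, titled as WT and given the genotype E50_dCas9-KRAB; what E50 stands for is not said. dCas9-KRAB is a nuclease-dead Cas9 fused to a repressor domain that lowers transcription at the promoter a guide RNA names. One library came from cells with a lentiviral guide against SMC1A (sgRNA_SMC1A) and the other from cells with a control guide (sgRNA_Control), and cells of both had been kept in 1 µg/ml puromycin from day 2 to day 6 and sorted for high blue fluorescence of the guide vector. Poly(A) RNA from 1 µg of input entered a strand-preserving kit and was read as pairs of 100 bases, so LINC transcripts without a poly(A) tail were depleted in both libraries. The labels do not say whether the cells were 1 clone, and the number of libraries was 1 per guide.

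The promoter windows of 4 LINC genes that were several times higher with the SMC1A guide are shown first, because these genes are described in detail below. Each runs 5′ to 3′ on the strand of the gene, from 250 bases before the RefSeq start to 50 bases after it (RefSeq, GRCh38.p14). LINC01132 is at chr1:234723792-234724091 on the plus strand, LINC02573 at chr21:20258636-20258935 on the minus strand, LINC00857 at chr10:80207460-80207759 on the plus strand and LINC02777 at chr1:58904089-58904388 on the minus strand. Capitals mark matches to AGATAA (the GATA factor motif), TGANTCA (a loose form of the AP-1 motif), TATAAA (the TATA box) or AGGGGGC (a core of the CTCF motif). N stands for any base. Each was searched on both strands, and the matches shown do not overlap.
LINC01132: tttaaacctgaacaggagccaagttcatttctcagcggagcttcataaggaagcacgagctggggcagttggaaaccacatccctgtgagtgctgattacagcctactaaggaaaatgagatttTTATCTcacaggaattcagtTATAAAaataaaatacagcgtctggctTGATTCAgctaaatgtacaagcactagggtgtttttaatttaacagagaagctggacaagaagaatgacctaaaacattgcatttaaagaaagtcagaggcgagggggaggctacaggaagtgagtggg
LINC02573: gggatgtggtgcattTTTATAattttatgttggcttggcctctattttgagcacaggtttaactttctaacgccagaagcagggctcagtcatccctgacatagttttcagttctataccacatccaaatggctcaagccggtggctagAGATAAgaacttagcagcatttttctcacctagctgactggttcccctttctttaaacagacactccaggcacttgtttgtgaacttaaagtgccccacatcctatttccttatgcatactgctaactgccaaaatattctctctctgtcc
LINC00857: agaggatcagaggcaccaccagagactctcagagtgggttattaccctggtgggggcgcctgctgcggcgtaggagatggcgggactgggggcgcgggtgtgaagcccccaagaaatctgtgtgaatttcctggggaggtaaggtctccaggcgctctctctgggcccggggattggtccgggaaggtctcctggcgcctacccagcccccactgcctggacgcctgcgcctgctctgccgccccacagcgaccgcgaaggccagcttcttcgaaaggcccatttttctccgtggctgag
LINC02777: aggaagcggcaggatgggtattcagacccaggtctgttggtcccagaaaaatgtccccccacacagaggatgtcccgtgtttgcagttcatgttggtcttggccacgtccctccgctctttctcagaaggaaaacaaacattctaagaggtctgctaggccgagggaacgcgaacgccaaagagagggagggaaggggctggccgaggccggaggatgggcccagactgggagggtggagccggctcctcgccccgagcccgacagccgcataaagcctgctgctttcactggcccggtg

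The LINC01132 window held 1 GATA, 1 loose AP-1 and 1 TATA match, and the LINC02573 window 1 GATA and 1 TATA match. The windows of LINC00857 and LINC02777 held none of the 4. CpG dinucleotides numbered 4 in the LINC01132 window and 2 in that of LINC02573, against 18 for LINC00857 and 16 for LINC02777, with a median of 14 over all 35116 RefSeq windows. A window was on hand for 109 of the 181 LINC genes, 122 windows in all. AGATAA stood in 13.9% of these and in 10.3% of all windows, TGANTCA in 9.84% and 7.71%, TATAAA in 13.1% and 11.5%, and AGGGGGC in 13.1% and 14.4%. A match describes the letters and not a bound site.

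The libraries held 16864207 counts with the SMC1A guide and 18349209 with the control guide, and 20786 and 19468 genes had at least 1 count. SMC1A itself had 288 counts (16.3 CPM, counts relative to the TMM-scaled library size) with the SMC1A guide and 8077 counts (460.4 CPM) with the control guide, a log2 ratio of -4.81. All 10 markers of erythroid K562 cells were present at summed levels of 13122 and 13778 CPM. Single markers moved in both directions under these sums. HBE1, the largest part, was at 10348 CPM with the SMC1A guide and 6755 CPM with the control guide (0.62). HBG2 was at 1159 and 3713 CPM (-1.68), and LMO2 at 23.1 and 95.4 CPM (-2.04). Lists for T cells, B cells, monocytes and fibroblasts summed to 0.794 to 27.05 CPM with the SMC1A guide and 0.969 to 18.5 CPM with the control guide, and an epithelial list, nearly all of it EPCAM, to 114.5 and 169.8 CPM; the part of such cells in the LINC values was not tested. In bulk RNA fewer cells of a type and less RNA per cell cannot be told apart. With 1 library per guide no test across samples was possible, so every difference is between these libraries, and every interval is an exact 95% interval of the count ratio that covers counting error only.

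Together the 181 LINC genes gave 34780 counts (1972 CPM) with the SMC1A guide and 31226 counts (1780 CPM) with the control guide. At least 1 count was present for 180 of them with the SMC1A guide and for 178 with the control guide. Their median log2 ratio of CPM, SMC1A guide over control guide with a prior count of 1, was 0.25, and 117 of 181 lay above 0 (64.6%). The median over all 14257 genes with 20 counts was -0.01. At least 2-fold higher with the SMC1A guide were 27 LINC genes (14.9%), where 9.55% of all genes with at least 20 counts were, and at least 2-fold lower were 8 (4.42%), against 3.63% of all genes. For 14 of the higher and 1 of the lower LINC genes the entire counting interval was beyond 2-fold, as it was for 4.44% and 1.47% of all genes. At least 4-fold higher were 13 and at least 4-fold lower was 1, with 3.03% and 0.701% of all genes. Library totals in place of TMM would raise every log2 ratio by 0.13.

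**Figure D1:**
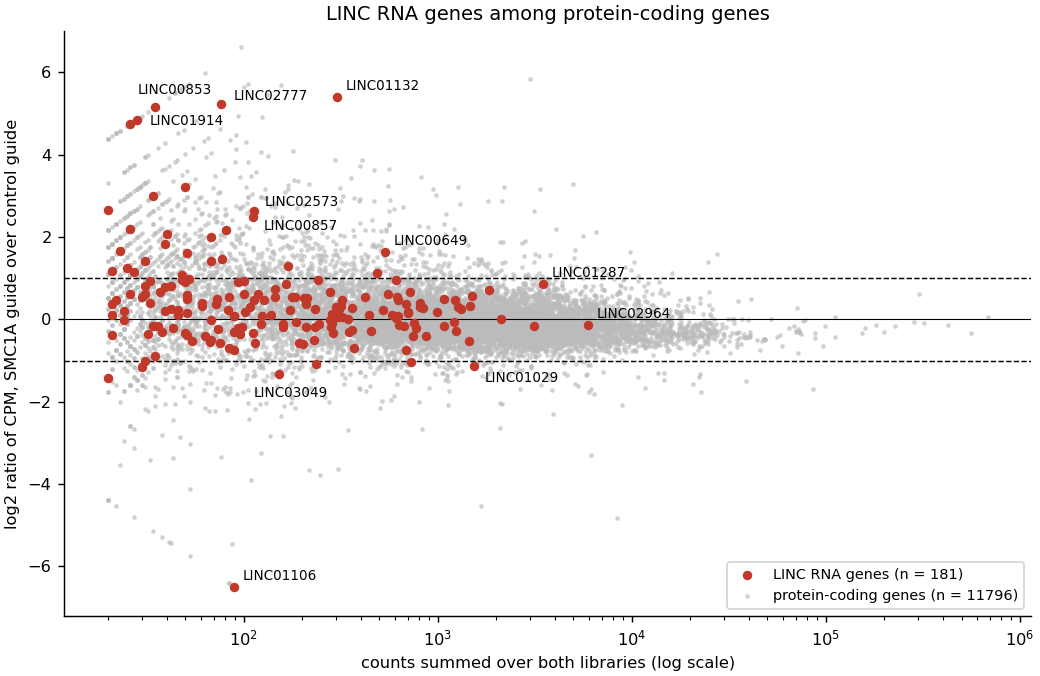
Log2 ratio of CPM, SMC1A guide over control guide (vertical axis), against the counts summed over both libraries (horizontal, log scale) for the 181 LINC genes in red and 11796 protein-coding genes in grey; dashed lines mark 2-fold. Most LINC genes with over 100 counts lie between the lines, LINC01132 stands at 5.40, and the genes at 0 counts in one library (LINC00853, LINC01914, LINC02770 and LINC01106) are drawn at ratios that depend on the prior count.

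The spread of the ratios narrowed as counts grew. Count ranges began at 20, 50, 100, 200 and 500 counts summed over both libraries. The share of all genes in each range stands after that of the LINC genes. In the lowest range, 14 of 43 LINC genes were at least 2-fold higher (32.6%, all genes 29.04%) and 3 lower (6.98%, all genes 10.0%). From 50 counts 7 of 37 were higher (18.9%, all genes 22.9%) and 1 lower (2.703%, all genes 6.66%). From 100 counts 3 of 26 were higher (11.5%, all genes 17.7%) and 1 lower (3.85%, all genes 6.54%). From 200 counts 2 of 34 were higher (5.88%, all genes 10.4%) and 1 lower (2.94%, all genes 2.87%). In the highest range 1 of 41 was higher (2.44%, all genes 2.36%) and 2 lower (4.88%, all genes 1.66%). Among the 101 LINC genes with at least 100 counts, 6 were at least 2-fold higher and 4 lower, with 5.11% and 2.32% of all genes of that depth, and their median log2 ratio was 0.18. Their entire interval was beyond 2-fold higher for 4 and beyond 2-fold lower for 0, with 3.03% and 1.26% of all genes of that depth, and 3 were 4-fold higher and 0 lower, with 1.12% and 0.344%. The counting interval of 39 of these 101 lay wholly above no difference, that of 19 wholly below, and that of 43 held no difference. Of the 27 higher LINC genes, 16 had fewer than 10 counts with the control guide, and their median total was 48 counts.

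Protein-coding genes of the same count ranges also had smaller shares past 2-fold at greater depth. At least 2-fold higher with the SMC1A guide were 36.5% of protein-coding genes in the lowest range, then 28.9%, 20.4% and 10.8%, and 2.29% in the range from 500 counts. Weighted to the count ranges of the 181 LINC genes, 20.1% of protein-coding genes were at least 2-fold higher and 5.89% lower, beside 14.9% and 4.42% of the LINC genes. The median log2 ratio was 0.25 for LINC genes, beside 0.26 for the medians of protein-coding genes weighted by range, and 64.6% of LINC genes lay above 0 beside 59.9% of protein-coding genes. These weighted shares differed by range. At least 2-fold lower were 6.98% of LINC genes and 11.05% of protein-coding genes in the lowest range, then 2.703% and 6.50%, 3.85% and 7.70%, 2.94% and 2.54%, and 4.88% and 1.58% from 500 counts, where the LINC shares rest on few genes. None of these differences was tested. The medians parted most in the range from 50 counts, with 0.16 for LINC genes and 0.43 for protein-coding genes, and in that from 500 counts, with 0.18 and -0.10.

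**Figure D2:**
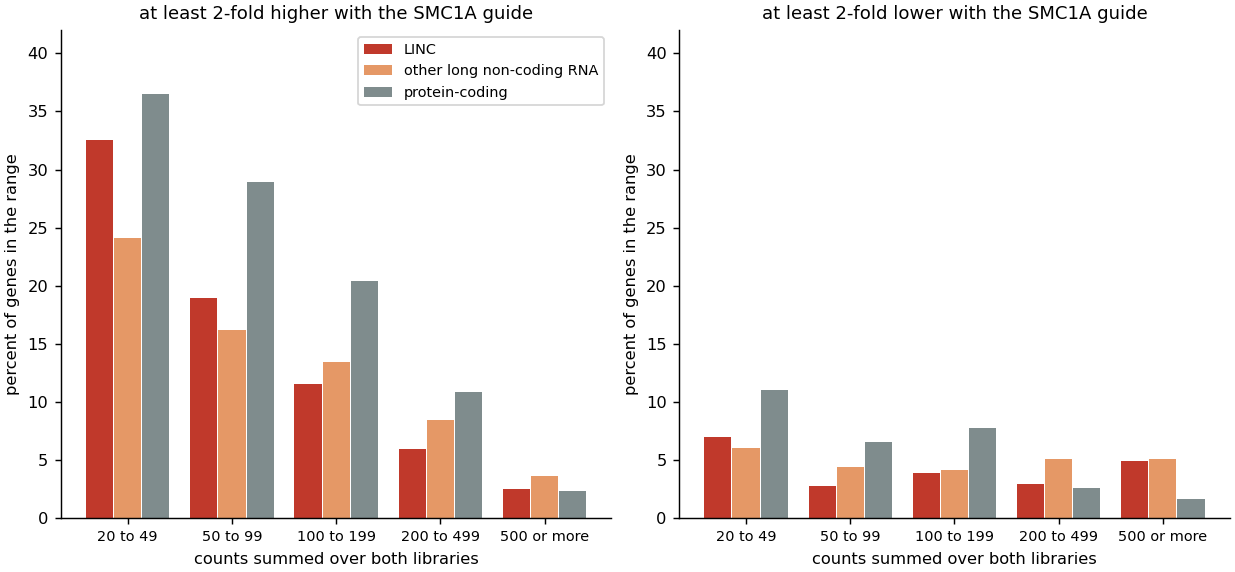
Percent of genes at least 2-fold higher (left) and at least 2-fold lower (right) with the SMC1A guide in 5 ranges of the counts summed over both libraries, for LINC genes, other GENCODE long non-coding RNAs, and protein-coding genes. The other long non-coding RNAs are all those without a LINC symbol, -AS and -DT genes included. The bars carry no error. The higher share of LINC genes is 32.6% in the lowest range and 2.44% in the highest and is below that of protein-coding genes in the first 4 ranges.

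Other classes of long non-coding RNA with at least 20 counts are to be set against 9.55% higher and 3.63% lower over all such genes. Antisense genes with an -AS symbol had 54 of 339 at least 2-fold higher (15.9%), 10 lower (2.95%) and a median log2 ratio of 0.26. Protein-coding genes weighted to their count ranges had 22.7% and 6.71%. Divergent transcripts with a -DT symbol had 31 of 184 higher, 4 lower and a median of 0.15. The 22 small nucleolar RNA host genes (SNHG) had none past 2-fold in either direction and a median of -0.63, and the 25 microRNA host genes had 2 higher, 3 lower and a median of -0.18. The 90 genes whose RefSeq synonyms hold a former LINC symbol had 12 higher (13.3%), 8 lower (8.89%) and a median of 0.01, beside weighted protein-coding shares of 14.4% and 4.48%. MEG3, an imprinted RNA, was at 199.6 CPM with the SMC1A guide and 857.9 CPM with the control guide, and H19, another imprinted RNA, at 28.1 and 136.2 CPM. The lowest LINC gene with 500 or more counts had a log2 ratio of -1.12. Of 20 well-known long non-coding RNAs from outside the LINC symbols, 16 had 20 counts, of which MIAT was higher (82 and 29 counts), MEG3 and H19 were lower, and the median was -0.06.

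The 12 LINC genes with the most counts held 38.9% of all LINC counts with the SMC1A guide and 40.6% with the control guide. LINC02964 was first with 2815 counts (159.6 CPM) with the SMC1A guide and 3095 counts (176.4 CPM) with the control guide, a log2 ratio of -0.14 (interval -0.22 to -0.07). LINC01287 (chr7:153355365-153413981) had 2239 counts (126.9 CPM) and 1230 counts (70.1 CPM), a log2 ratio of 0.86 (0.76 to 0.96). LINC00958 (chr11:12961842-12989548), an RNA reported mostly from carcinomas, had 1478 counts (83.8 CPM) and 1635 counts (93.2 CPM), a log2 ratio of -0.15 (-0.26 to -0.05). The first and the last of these were close to level in both libraries, while LINC01287 was 1.81-fold higher with the SMC1A guide, just short of the 2-fold limit.

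LINC01694 (chr21:45593654-45603056) had 1062 counts with the SMC1A guide and 1046 with the control guide, which are 60.2 and 59.6 CPM. LINC00205 (chr21:45288050-45297806), which starts 152 bases from POFUT2, a fucosyltransferase gene on the other strand, had 1144 and 691 counts (log2 ratio 0.72, 0.58 to 0.86), and POFUT2 had 660 and 497 counts (0.40). LINC01610 (chr6:70394887-70399417) had 897 and 604 counts (0.56, 0.41 to 0.71). Both partners of the bidirectional pair were thus above 0, the non-coding one further. LINC00689 at 0.33, LINC00667 at 0.30 and LINC00174 at 0.25 lay close together, and LINC01128 was lower, at -0.51. LINC02193, at -0.27, has its whole longest transcript in other genes at 95% identity or more, so its count depends on how shared reads were divided.

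Per kilobase of merged exons the order differed, since LINC01610 has 397 bases of exon. It stood at 128.1 CPM per kb with the SMC1A guide and 86.7 CPM per kb with the control guide, the highest of the LINC genes with a known length in both libraries. LINC00958 followed at 29.2 and 32.5 CPM per kb, LINC01287 at 25.5 and 14.1, and LINC02772 at 21.4 and 44.1. The middle LINC gene stood at 1.77 CPM per kb with the SMC1A guide and 1.43 with the control guide, beside 6.01 and 6.03 for protein-coding genes with at least 20 counts. LINC levels per length were thus several times below those of coding genes in both libraries.

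The highest ratios among LINC genes with at least 100 counts were those of LINC01132, LINC02573, LINC00857 and LINC00649. LINC01132 (ENSG00000227630.4, chr1:234724042-234736720, 3 exons in its longest form) had 296 counts (16.8 CPM) with the SMC1A guide and 6 counts (0.342 CPM) with the control guide. This is a log2 ratio of 5.40 (interval 4.48 to 7.07), far above the next LINC gene with 100 counts. LINC02573 (ENSG00000233236.1, chr21:20256752-20258820) had 98 counts (5.56 CPM) and 15 counts (0.855 CPM), a log2 ratio of 2.62 (1.91 to 3.59). LINC00857 (ENSG00000237523.2, chr10:80207710-80219657) had 95 counts (5.39 CPM) and 16 counts (0.912 CPM), a log2 ratio of 2.49 (1.79 to 3.43). All 3 were low with the control guide and moderate with the SMC1A guide. Of their promoter windows, printed above, those of LINC01132 and LINC02573 are poor in CpG and hold a GATA and a TATA match each, and that of LINC00857 is rich in CpG and holds neither.

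LINC00649 (ENSG00000237945.9, chr21:33915534-33977691) was different in that it was already expressed with the control guide, with 404 counts (22.9 CPM) with the SMC1A guide and 128 counts (7.30 CPM) with the control guide, a log2 ratio of 1.64 (1.36 to 1.95). LINC01569 had 120 and 48 counts (1.30, 0.82 to 1.83) and LINC01011 333 and 151 counts, 2.19-fold higher (1.81 to 2.68). LINC01011 lies on the same strand as NQO2, a quinone reductase gene that it overlaps, so reads of the pair may have been divided between them; NQO2 had 1060 and 688 counts (0.62). The intervals of LINC01569 and LINC01011 both reached below 2-fold. The next 4 in order, LINC00656, LINC01215, LINC01876 and LINC02109, lay between 0.86 and 0.97, below the 2-fold limit with TMM scaling, and library totals would put LINC00656, LINC01215 and LINC01876 above it.

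Below 100 counts, several LINC genes were seen almost only with the SMC1A guide. LINC02777 (chr1:58882868-58903747) had 75 counts (4.25 CPM) with the SMC1A guide and 1 count with the control guide, a log2 ratio of 5.24 (3.70 to 11.54). LINC00853 (chr1:47179250-47180339) had 35 and 0 counts, at least 11.6-fold higher when 3 counts are put in place of 0. LINC01914 (chr2:41931599-41933723) had 28 and 0 counts, at least 9.28-fold higher. LINC02770 (chr1:191875495-192011260) had 26 and 0 counts, at least 8.62-fold higher. These 3 were below detection with the control guide, where 3 counts are 0.171 CPM, and between 1.47 and 1.98 CPM with the SMC1A guide. Further genes past 4-fold were LINC02432 with 46 and 4 counts, LINC02897 with 31 and 3, LINC01597 with 67 and 14, LINC01135 with 22 and 4, and LINC01119 with 33 and 7. The median of all 181 ratios is 0.25 whether or not the 4 genes at 0 in one library are placed at these bounds.

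**Figure D3:**
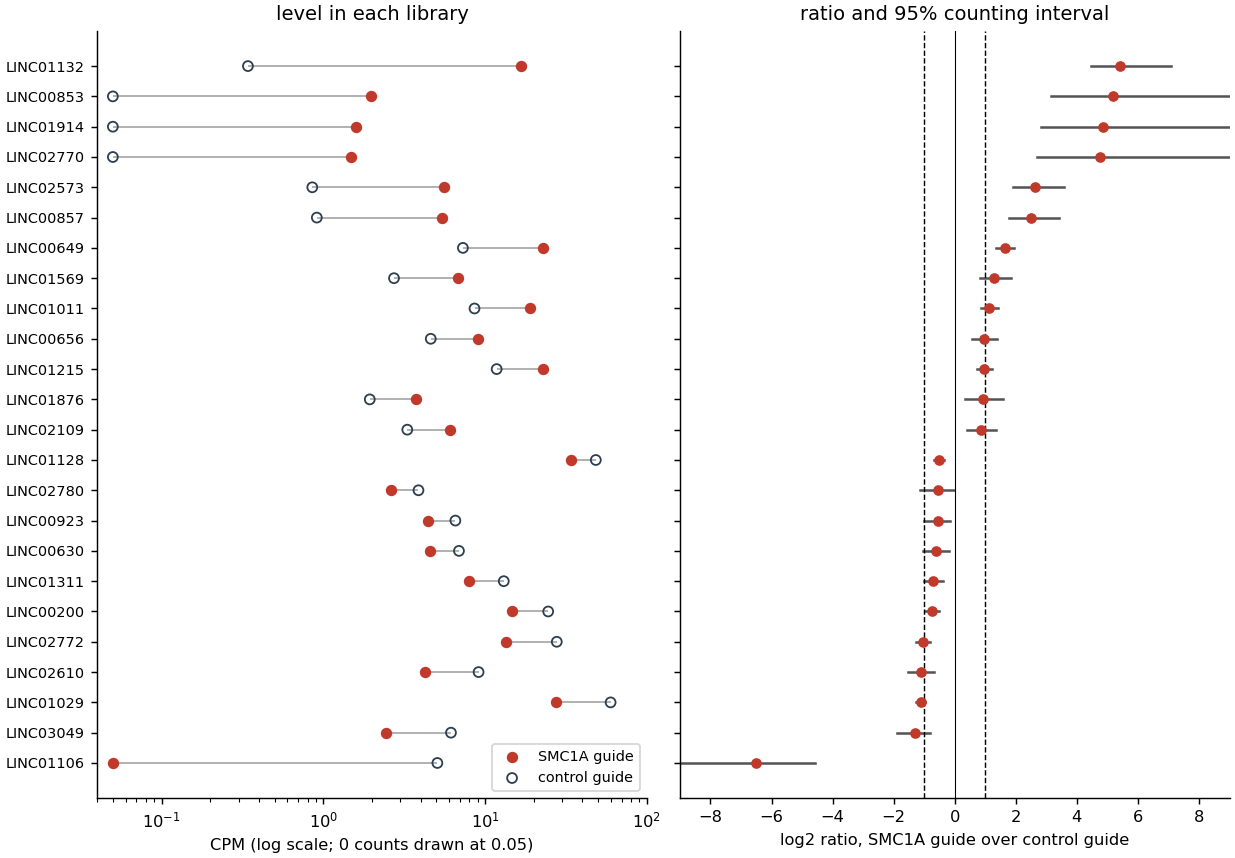
Left, CPM (log scale; 0 counts drawn at 0.05) of each named LINC gene with the SMC1A guide (filled) and the control guide (open); right, log2 ratio, SMC1A guide over control guide, with its 95% counting interval, which is open to the edge of the plot where a library has 0 counts. LINC01132 was at 16.8 and 0.342 CPM, and the intervals of LINC02573, LINC00857 and LINC00649 also lie wholly above 2-fold, while that of LINC01106 alone lies wholly below 2-fold lower.

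Among LINC genes with at least 100 counts, the ratios of the lowest were closer to level than those of the highest, with -1.32 at one end and 5.40 at the other. LINC01029 (ENSG00000265843.3, chr18:77971294-77993722) had 484 counts (27.4 CPM) with the SMC1A guide and 1048 counts (59.7 CPM) with the control guide, a log2 ratio of -1.12 (-1.28 to -0.97). LINC02772 (ENSG00000271736.2, chr1:157280716-157283068) had 237 counts (13.4 CPM) and 487 counts (27.8 CPM), a log2 ratio of -1.04 (-1.28 to -0.82). LINC02610 (ENSG00000186235.12, chr2:238224552-238231677) had 75 and 160 counts (-1.09, -1.52 to -0.70). All 3 were lower with the SMC1A guide under every scaling tried, but with library totals none of them passed 2-fold. LINC03049 (chr19:34849278-34860576) had 43 and 108 counts (-1.32, -1.88 to -0.81), but 63.2% of its longest transcript occurs at 95% identity or more in LINC00649 and other genes, so its count is uncertain. The other 6 of the 10 lowest with 100 counts, LINC00200, LINC01311, LINC00630, LINC00923, LINC02780 and LINC01128, lay between -0.75 and -0.51.

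The only LINC gene at 0 counts with the SMC1A guide was LINC01106 (ENSG00000175772.11, chr2:110375138-110384442), with 0 counts against 89 counts (5.07 CPM) with the control guide, at least 29.8-fold lower with 3 counts in place of 0. Its sequence is nearly that of LINC01123 (ENSG00000204588.5, chr2:109987063-109996140, opposite strand), which had 165 counts with the SMC1A guide and 157 with the control guide. Of the longest LINC01106 transcript, 96.2% occurs at 95% identity or more in transcripts of LINC01123. Against the longest LINC01123 transcript, 57.8% aligned, at 99.9% identity and with 1 differing base. The stretch of 120 bases around that base, from GENCODE 29 transcripts (GRCh38), shows how little separates the reads of the pair, and the capital marks the differing base.
LINC01106: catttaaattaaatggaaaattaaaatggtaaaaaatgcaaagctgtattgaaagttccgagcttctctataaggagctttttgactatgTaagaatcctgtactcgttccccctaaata
LINC01123: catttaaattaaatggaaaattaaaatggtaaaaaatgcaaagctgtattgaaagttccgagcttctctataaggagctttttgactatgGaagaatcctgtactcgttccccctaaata

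The bases are 1291 to 1410 of the LINC01106 transcript and 2316 to 2435 of the LINC01123 transcript, counted from 1 at the 5′ end. Summed over the pair, 165 counts with the SMC1A guide stood against 246 with the control guide, a log2 ratio of -0.58 (-0.88 to -0.29). LIMS3 and LIMS4, which code for LIM domain proteins, lie in the same region, LIMS4 62198 bases from LINC01106 and LIMS3 62195 bases from LINC01123. LIMS3 had 0 counts with the SMC1A guide and 41 with the control guide, and LIMS4, the nearer of them to LINC01106, had 30 and 0, so this pair went in opposite directions, whereas LINC01123 was level (0.06, -0.26 to 0.39). Their sum was 30 and 41 counts, a log2 ratio of -0.45 (-1.19 to 0.26). Of the other genes within 500 kb, ACOXL had 16 counts with the SMC1A guide and 120 with the control guide (-2.84). MTLN had 46 and 108 (-1.22) and BUB1 3467 and 4984 (-0.53). RGPD6, 129.37 kb from LINC01106, went the other way, with 363 and 240 (0.59). RGPD5, 129.368 kb from LINC01123, had 176 and 241 (-0.46). The part of the division of shared reads in the values of LINC01106, LIMS3, LIMS4, RGPD5 and RGPD6 was not tested. In all, 17 of the 175 LINC genes that could be searched had a near-identical copy, among them 2 of the 8 lower genes and none of the 27 higher.

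The genes around the outlying LINC genes gave a mixed picture. LINC01132 lies 114.5 kb from IRF2BP2, a transcriptional co-repressor gene, which had 857 counts with the SMC1A guide and 960 with the control guide (-0.17), and TOMM20, a mitochondrial import receptor gene, on its other side had 5818 and 8926 counts (-0.62). No gene with 20 counts within 500 kb of LINC01132 other than itself passed 2-fold. LINC02777 lies 98.5 kb from JUN, a subunit of the AP-1 factor, and overlaps LINC01135, which starts 0.801 kb from JUN. JUN had 982 and 603 counts (0.70), FGGY on the far side 121 and 56 (1.09), and both LINC genes were higher. These 4 genes were above 0, while MYSM1 (1854 and 2113 counts, -0.20) and OMA1 (503 and 540 counts, -0.11), both nearer than FGGY, were below it. In addition, LINC01135 rests on 4 control counts and strands in the counting are not given, so that reads of the overlapping pair cannot be told apart.

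LINC00853, seen with the SMC1A guide alone, lies 36.0 kb from TAL1, a transcription factor required for blood formation. TAL1 had 3989 counts with the SMC1A guide and 3309 with the control guide (0.26), close to level. It is the nearest coding gene with at least 20 counts, while PDZK1IP1, below that limit, lies nearer, at 3254 bases. LINC00649 overlaps ATP5PO, a subunit gene of the mitochondrial ATP synthase on the other strand, which had 3999 and 4096 counts (-0.04), and SMIM11 within 500 kb had 135 and 332 counts (-1.30). LINC00857 lies 2.14 kb from ANXA11, an annexin gene, with 2601 and 1734 counts (0.58), and PRXL2A further on had 1111 and 429 counts (1.36). LINC01569 lies near TFAP4, a helix-loop-helix factor gene, with 290 and 449 counts (-0.64), and 60.9 kb by start from GLIS2, a zinc finger factor gene, with 327 and 41 counts (2.96). Around LINC01569 the nearest coding gene with at least 100 counts was thus lower and a gene beyond it far higher.

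**Figure D4:**
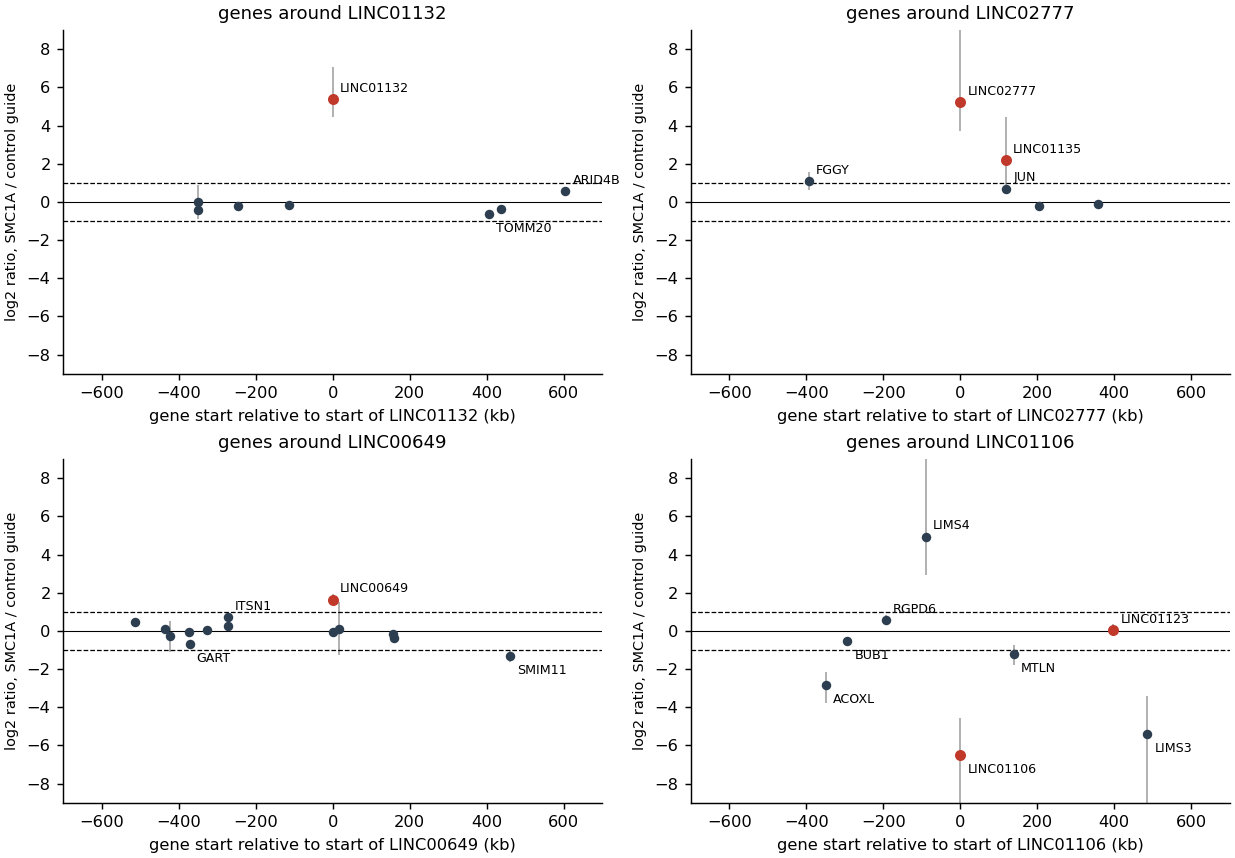
Log2 ratio, SMC1A guide over control guide, with 95% counting intervals, of genes with at least 20 counts around LINC01132, LINC02777, LINC00649 and LINC01106, placed by the distance of their starts in kb; LINC genes are red and dashed lines mark 2-fold. LINC01132 stands alone at 5.40 among genes between -0.62 and 0.58. Around LINC01106 its copy LINC01123 is level at 0.06, LIMS3 is far below 0 and LIMS4 far above. LIMS3 and LIMS4 each have 0 counts in 1 library, and the part of shared reads in their values was not tested. ACOXL at -2.84 and MTLN at -1.22 are also beyond 2-fold lower there.

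A GENCODE position was on hand for 175 LINC genes. Across them the ratio of the LINC gene and that of its nearest protein-coding gene with at least 100 counts had a Pearson correlation of 0.05 and a Spearman correlation of 0.03. For the 114 with such a neighbour within 100 kb these were 0.19 and 0.14, and for the 61 farther away -0.15 and -0.19. With the nearest coding gene of at least 20 counts the Pearson correlation turned to -0.11 at any distance and to -0.19 within 100 kb. The Spearman correlations were 0.03 and 0.05. That choice pairs LINC01106 (-6.50) with LIMS4 (4.95), each at 0 counts in 1 library. The Pearson correlation without this pair was not computed. All these correlations are descriptions across genes of the same 2 libraries, with 162 different neighbours in the first comparison, and genes are not replicates. Over all 175 LINC genes the neighbour was at least 2-fold higher for 6 and lower for 2, and above 0 for 49.1%. Of the 27 higher LINC genes, 1 had a neighbour at least 2-fold higher, LINC01914 with PKDCC, a secreted kinase gene (172 and 82 counts, 114.3 kb), and 13 had a neighbour above 0; with neighbours of at least 20 counts, 3 had one at least 2-fold higher, beside 10 of all 175. Of the 8 lower, 1 had a neighbour at least 2-fold lower, LINC03049 with ZNF30, a zinc finger gene (101 and 253 counts, -1.32).

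Where a neighbour within 100 kb passed 2-fold, the LINC gene with 100 counts beside it mostly did not. TRIM38, a ubiquitin ligase gene, had 485 counts with the SMC1A guide and 170 with the control guide beside LINC02980 with 93 and 79 (0.23). NR4A2, an orphan nuclear receptor gene, had 111 and 41 counts (1.41) beside LINC01876 with 66 and 34 (0.93). RHOF had 88 and 40 counts (1.11) beside LINC01089 with 168 and 136 (0.30), which overlaps it on the same strand and shares 61.0% of its longest transcript with it. In these 3 pairs the LINC gene had the same sign and the smaller ratio. LINC02610 and HES6, a helix-loop-helix gene 6.59 kb away on the same strand, were both lower, HES6 with 421 and 810 counts (-0.95).

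**Figure D5:**
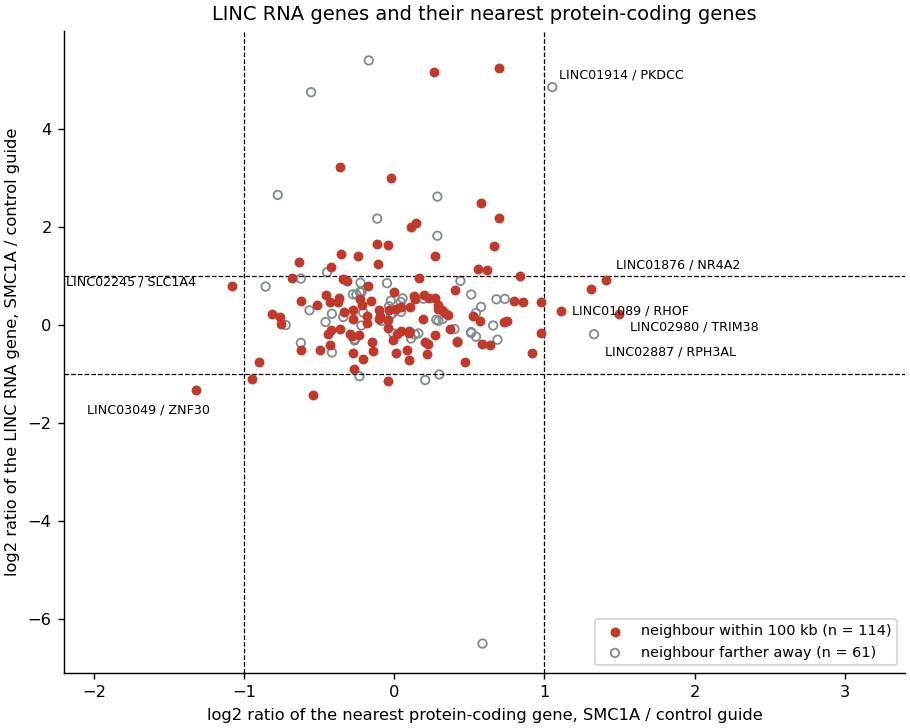
Log2 ratio, SMC1A guide over control guide, of each of 175 LINC genes (vertical) against that of its nearest protein-coding gene with at least 100 counts (horizontal); filled points have the neighbour within 100 kb and dashed lines mark 2-fold. The points form no line (Spearman 0.03), and LINC01914 with PKDCC is the pair beyond 2-fold higher on both axes, LINC03049 with ZNF30 the pair beyond 2-fold lower.

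By distance to the nearest protein-coding gene of any count, the groups are to be set against 14.9% higher, 4.42% lower and 64.6% above 0 over all LINC genes, and against 9.55%, 3.63% and 49.2% over all genes with at least 20 counts. In all, 20 LINC genes overlapped a coding gene, and 5 of these were at least 2-fold higher, none lower, with 18 of 20 above 0 and a median log2 ratio of 0.40. Among 28 up to 5 kb away, 6 were higher and 1 lower, with a median of 0.26. Of 59 between 5 and 50 kb, 6 were higher and 3 lower (median 0.12), and of 54 between 50 and 500 kb, 8 were higher and 2 lower (0.38). The 14 farther than 500 kb had 2 higher and 2 lower (0.18). No steady order with distance was seen.

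In structure the LINC genes were shorter and less spliced than coding genes. Their merged exons had a median of 2534 bases and the longest form 4 exons, beside 5083 bases and 10 exons for protein-coding genes with at least 20 counts, and 18 LINC genes had a single exon. The GC content was nearly equal, with medians of 47.9% and 48.4%. AATAAA or ATTAAA stood in the last 50 bases of the longest transcript of 57.1% of LINC genes and 76.1% of protein-coding genes. GENCODE 29 gives 145 of the 175 the type lincRNA, and the others types such as antisense or processed transcript, so a LINC symbol does not always mean an intergenic gene. The 27 higher genes had medians of 2258 exon bases, 3 exons and 0.178 CPM per kb with the control guide, where the 146 genes past 2-fold in neither direction had 2651 bases, 4 exons and 1.74 CPM per kb. That the higher genes were low in the control library follows in part from how they were chosen. The 21 promoter windows of the higher genes had a median of 7 CpG, beside 14.5 over all LINC windows, and 4 of them (19.05%) held AGATAA, 1 (4.76%) TGANTCA, 5 (23.8%) TATAAA and 3 (14.3%) AGGGGGC, beside the shares over all windows given above.

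Of 36 LINC RNAs often studied in cancer cells, 22 were among the 181, and 17 of these had at least 100 counts. The 22 had a median log2 ratio of 0.23, with 17 above 0, 1 at least 2-fold higher and none lower. Of all genes with at least 20 counts, 9.55% were higher and 3.63% lower, and of the 181 LINC genes 14.9% and 4.42%. The higher one, LINC01138, had 55 counts with the SMC1A guide and 13 with the control guide (1.99, 1.18 to 3.07). The 17 with 100 counts ranged from -0.51 for LINC01128 to 0.72 for LINC00205. LINC00963 had 338 and 218 counts (0.62), LINC00339, which lies 21.4 kb from CDC42, had 367 and 250 (0.54), LINC00467 had 461 and 346 (0.41), LINC01234 had 358 and 412 (-0.21) and LINC00662 had 205 and 249 (-0.29). The 17 were thus all within 2-fold of level, at a depth where only 5.11% of all genes were at least 2-fold higher and 2.32% lower. LINC00665, at -0.10, is the one of them whose sign turns with library totals.

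At the limit of 20 counts, LINC01270, with 18 counts with the SMC1A guide and 2 with the control guide, and LINC01521, with 5 and 15, were just inside. Just outside with 19 counts were LINC00173 with 10 and 9, LINC01666 with 8 and 11, and LINC02377 with 12 and 7. The counting interval of the LINC01270 fold ran from 2.14 to 79.6 and that of the LINC01521 fold from 0.094 to 0.960, so values at this depth place a gene only roughly.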

How the data were processed

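RNA was sequenced in 2 K562 libraries, 1 per guide, and the values deposited by the authors are estimated counts of genes, in whole numbers and unscaled. The submitters' processing notes name Salmon 1.10.1, STAR 2.7.10a and DESeq2 1.42.1 with hg38 (GRCh38). Neither the annotation nor the strand setting of the counting is stated there. Estimated counts divide reads that match several transcripts. Symbols came from a gene-name table, and positions, types and transcripts from GENCODE 29, which holds 97.9% of the genes with 100 counts. Former LINC symbols were taken from RefSeq synonyms.

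TMM factors came from edgeR 4.0.16 in R 4.3.3, log2 ratios of CPM from its formula with a prior count of 1, and other values from Python 3.11.15. With 1 library per guide no test was run and no p-value is given. Intervals (Clopper-Pearson, 95%) and the floor of 3 counts cover counting error only, since no molecular identifiers separate PCR copies from molecules. Copies were searched with BLAST 2.17.0 (at least 95% identity over at least 50% of the longest transcript). The count steps were checked on simulated data.

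Named LINC genes were the 12 with the most counts, the 10 highest and 10 lowest ratios among those with 100 counts, those at 0 in one library, those with a neighbour past 2-fold (1 such pair is not reported here), those at the 20-count limit and the studied list. Named outside this rule, after their values were seen, were LINC02777, LINC02432, LINC02897, LINC01597, LINC01135, LINC01119 and LINC01138. Members and lists were chosen with earlier results of these data known. Alternatives were other scalings, prior counts, count limits and fold limits.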

Additional observations from a re-analysis of the deposited data

How the results depend on the processing

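The 27 higher and 8 lower LINC genes and the median log2 ratio of 0.25 kept their direction under every alternative run. Library totals gave 4 lower genes and a median of 0.38. Set against the median of protein-coding genes of the same count range, 21 were higher and 11 lower, and the median was 0.034. A limit of 50 counts left 13 higher and 5 lower of 138, and one of 100 counts 6 and 4 of 101 (all genes 5.11% and 2.32%). A limit of 1 count gave 160 and 98 of 568 with a median of 0.53. Shares of all genes were not taken at limits of 50 and 1. Among genes with 1 to 19 counts, 41.3% of LINC and 39.3% of protein-coding genes were seen only with the SMC1A guide. With the whole counting interval past 2-fold there were 14 and 1 of 181 (all genes 4.44% and 1.47%), and with a 4-fold limit 13 and 1 (all genes 3.03% and 0.701%). DESeq2 size factors, upper quartile factors, prior counts of 0.25 and 5, and leaving out genes that overlap a coding gene changed these counts by less than 1.5 times, as did leaving out the genes with a near-identical copy, which was chosen after seeing the data and gave 27 and 6. The causes were not tested, except that higher limits leave fewer genes by construction. The share of higher genes minus that of matched protein-coding genes was -5.16 percentage points, -5.37 with 10 count ranges and -4.14 with library totals. No paired analysis was possible because each guide had 1 library, and for the same reason no library could be left out. Depth limits most the LINC genes with under 10 counts in one library.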

Other observations

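Below the limit of 20 counts, 387 LINC genes had 1 to 19 counts. Their counts summed to 1220 with the SMC1A guide and 696 with the control guide, a ratio of CPM sums of 1.74. Of these genes, 160 (41.3%) had counts only with the SMC1A guide and 70 (18.1%) only with the control guide. The 2814 protein-coding genes with 1 to 19 counts summed to 10364 and 6060 counts, a ratio of 1.70, with 39.3% seen only with the SMC1A guide and 16.2% only with the control guide. The excess of rarely read genes with the SMC1A guide was thus of nearly the same size in both classes. The LINC gene with the most counts in this range and none with the control guide was LINC01819, with 15 and 0 counts, and the one with the most and none with the SMC1A guide was LINC00926, with 0 and 12 counts.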
